A study of Mus musculus with 53 samples.

Results

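Pou5f1, Nanog, Sall4 and Zfp42 are 4 genes of the pluripotency network, and the CUT&RUN peaks at their loci are described here across embryonic stem cell (ESC) cultures, sorted cells and extra-embryonic endoderm of 1 reporter line. The genes were chosen by name, 4 of 21938 protein-coding genes of GENCODE M21, by a rule that uses no measured value. Each locus was taken as the gene body with 50 kb on each side. Pou5f1 (ENSMUSG00000024406) lies on the plus strand at chr17:35506018-35510772 of mm10, the build of the peak lists. Nanog (ENSMUSG00000012396) lies on the plus strand at chr6:122707489-122714633. Sall4 (ENSMUSG00000027547) lies on the minus strand at chr2:168748332-168767943. Zfp42 (ENSMUSG00000051176) lies on the minus strand at chr8:43295063-43306980.

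Pou5f1 encodes OCT4, a POU domain factor that pluripotent cells cannot do without, and Nanog encodes a homeodomain factor that stabilises self-renewal. Sall4 encodes a zinc finger factor that pluripotent cells and the primitive endoderm (PrE) both express. Zfp42 encodes REX1, a zinc finger protein widely used as a marker of the naive state. In ESCs the HMG box factor SOX2 binds together with OCT4 at enhancers of many such genes, while the zinc finger factor GATA6 specifies PrE in the blastocyst. H3K27ac marks active promoters and enhancers, and H3K4me1 marks enhancers whether active or poised.

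The cells were SGGC clones of E14JU mouse ESCs, in which the endogenous SOX2 protein carries GFP and the endogenous GATA6 protein carries mCherry. Every sample used here carries both reporters. 2iLIF and NACL are defined media for naive ESCs, and each gave SOX2, H3K27ac and H3K4me1 libraries of clones B9 and B12. In KOSR medium, cells of clone B12 were sorted into a SOX2+ population and a double-positive (DP) population that holds both reporters. SOX2+ cells gave 3 SOX2 libraries and 2 of each histone mark, and DP cells gave 3 SOX2, 3 GATA6 and 1 of each histone mark, with the letters A, A1 and B in their titles. nEnd, a naive extra-embryonic endoderm culture that stands for PrE, gave GATA6 and H3K27ac libraries of both clones and 2 H3K4me1 libraries of clone B9. SOX2 in nEnd and GATA6 in 2iLIF, NACL and SOX2+ cells were not analysed here, so nothing can be read about them. All sorted libraries are labelled clone B12, while the study's description names both clones as replicates, so whether the spread within a sorted group is one within 1 clone or between clones cannot be told from the labels.

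CUT&RUN cuts chromatin around an antibody and sequences the released fragments, and each library is deposited as a list of peaks with a summed and a maximal signal. Maxima cannot be set side by side between libraries, so a peak is given here by the share of the same library's peaks that have a lower maximum. The 7 SOX2 libraries of 2iLIF, NACL and SOX2+ cells, called pluripotent libraries below, held 8203 to 29623 peaks, against 1378 to 5320 in the 3 DP SOX2 libraries. The DP GATA6 libraries held 1391 to 8316 peaks and the nEnd GATA6 libraries 24223 and 32510. The H3K27ac lists ran from 13514 peaks in SOX2+ cells to 401853 in 2iLIF, so the absence of a peak says only that none was called at that depth. Their median peak widths were 4386 and 5453 bp in nEnd and 1008 to 1452 bp in the naive lists. They covered 137.2 and 175.2 Mb in nEnd, 358.9 to 587.9 Mb in naive, 26.2 and 28.6 Mb in SOX2+ and 64.1 Mb in DP cells. The share of a gene covered by peaks depends on this breadth too. A bulk peak cannot tell fewer bound cells from less binding in each cell. As a check of the labels, the windows of 19 PrE markers had a median H3K27ac percentile of 91.0 to 94.1 in the nEnd libraries and of 34.2 to 46.6 in the naive ones. The windows of 7 naive markers stood at 35.1 to 58.0 in nEnd and at 87.7 to 90.8 in the naive libraries.

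Overlapping SOX2 and GATA6 peaks of the 15 libraries were merged into binding regions, named by the distance of their median maximum from the annotated gene start. Minus marks positions upstream. The 300 bases around the SOX2 maximum of the strongest region of each gene are shown because the comparisons below turn on them, and that of Pou5f1 at -18.7 kb because SOX2 and GATA6 peaks met there in DP cells. Sequences are from GRCm38, plus strand, with the strings searched in capitals on either strand, CATTGT for SOX factors, ATGCAAAT for OCT factors and AGATAA for GATA factors. A composite of CATTGT followed within 3 bases by ATGC, the arrangement of OCT4-SOX2 elements, was searched too, and it overlaps the SOX string.
Pou5f1 -15.4 kb, chr17:35490438-35490737: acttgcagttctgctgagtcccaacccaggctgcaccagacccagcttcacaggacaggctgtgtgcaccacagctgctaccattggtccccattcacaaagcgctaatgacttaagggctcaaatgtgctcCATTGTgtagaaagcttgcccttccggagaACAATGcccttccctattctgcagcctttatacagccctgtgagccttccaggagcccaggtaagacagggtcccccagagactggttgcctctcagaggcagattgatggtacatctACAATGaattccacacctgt
Pou5f1 -18.7 kb, chr17:35487208-35487507: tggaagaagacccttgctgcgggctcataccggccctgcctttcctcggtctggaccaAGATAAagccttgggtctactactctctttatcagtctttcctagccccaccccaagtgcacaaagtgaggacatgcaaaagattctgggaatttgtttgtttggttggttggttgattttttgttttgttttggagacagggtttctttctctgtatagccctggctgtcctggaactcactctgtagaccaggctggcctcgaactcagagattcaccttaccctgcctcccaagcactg
Nanog -4.4 kb, chr6:122702919-122703218: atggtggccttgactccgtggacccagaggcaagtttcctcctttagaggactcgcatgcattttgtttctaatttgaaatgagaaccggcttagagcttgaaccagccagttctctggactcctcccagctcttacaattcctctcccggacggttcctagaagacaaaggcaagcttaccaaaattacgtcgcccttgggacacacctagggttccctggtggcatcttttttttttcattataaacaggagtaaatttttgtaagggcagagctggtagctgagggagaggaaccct
Sall4 +5.1 kb, chr2:168762653-168762952: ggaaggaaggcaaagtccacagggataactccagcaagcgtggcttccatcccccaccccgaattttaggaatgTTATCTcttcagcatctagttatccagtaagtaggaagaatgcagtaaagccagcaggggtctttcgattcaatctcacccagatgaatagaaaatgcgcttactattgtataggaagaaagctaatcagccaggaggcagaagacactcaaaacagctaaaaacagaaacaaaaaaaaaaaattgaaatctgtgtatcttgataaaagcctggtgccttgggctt
Zfp42 -13.9 kb, chr8:43320710-43321009: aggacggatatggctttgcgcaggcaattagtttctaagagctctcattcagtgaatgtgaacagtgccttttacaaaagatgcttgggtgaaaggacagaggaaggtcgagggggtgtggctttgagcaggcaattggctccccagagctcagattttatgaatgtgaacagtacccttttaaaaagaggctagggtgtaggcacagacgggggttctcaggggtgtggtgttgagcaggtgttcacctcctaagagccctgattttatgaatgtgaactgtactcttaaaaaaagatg

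The Pou5f1 window at -15.4 kb held 3 SOX strings, a number reached by 1.25% of the 39797 windows of this length at SOX2 maxima across the genome. The Pou5f1 window at -18.7 kb and the Sall4 window each held 1 GATA string and no SOX string, and 18.0% of those windows held a GATA string. The Nanog and Zfp42 windows held none of the 4 strings, while 35.5% of SOX2 windows held a SOX string and 6.19% an OCT string. The reference marks 57.0% of the bases of the Pou5f1 window at -18.7 kb as repeats, against 0 to 19.7% in the other windows shown, and 17.7% of all SOX2 windows were masked over at least 50% of their bases. Among the 11 windows at regions bound in every pluripotent library, 4 held a SOX string and none held the composite, where 43.1% and 1.75% of the 4902 such windows in the genome did. These are letters found in a window and not sites.

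The promoter of Nanog is shown because a region with SOX2 peaks in 5 of 7 pluripotent libraries lies over it. The RefSeq promoter table holds Nanog, Pou5f1 and Zfp42. The 250 bases before the Nanog start, with the composite in capitals, were as follows.
Nanog promoter, chr6:122707239-122707488: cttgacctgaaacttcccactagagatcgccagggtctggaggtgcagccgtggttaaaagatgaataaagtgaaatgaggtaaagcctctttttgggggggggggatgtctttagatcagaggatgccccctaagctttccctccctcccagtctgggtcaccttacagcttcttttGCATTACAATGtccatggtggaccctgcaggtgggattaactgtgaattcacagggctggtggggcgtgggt
The composite began 72 bases before the start and was held by 0.143% of 32851 promoter windows of 300 bases. The Zfp42 promoter held 1 OCT string 186 bases before its start, where 1.74% of promoters held such a string. The Pou5f1 promoter before the main start held none of the strings.

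Across the 4 loci 48 binding regions were found, 15 at Pou5f1, 14 at Nanog, 12 at Sall4 and 7 at Zfp42. SOX2 peaks fell in 36 of them, GATA6 peaks in 26 and both in 14, while 13 regions rested on a single library. SOX2 was called in all 7 pluripotent libraries at 11 regions, 3 at Pou5f1, 3 at Nanog, 4 at Sall4 and 1 at Zfp42. Of these 11, 3 had no SOX2 peak in any DP library, against 36.5% of the 4902 such regions in the genome, and 4 had one in all 3 DP libraries, against 22.4%. The 3 without a DP peak were 1 each at Pou5f1, Nanog and Zfp42, and the 4 with DP peaks were 3 at Sall4 and 1 at Nanog. GATA6 was called in both nEnd libraries at 4 of the 11, against 14.5% of such regions, and 3 of these 4 were at Sall4. These classes were chosen after the peaks at the loci had been seen, and with 11 regions the shares are a description.

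**Figure D1:**
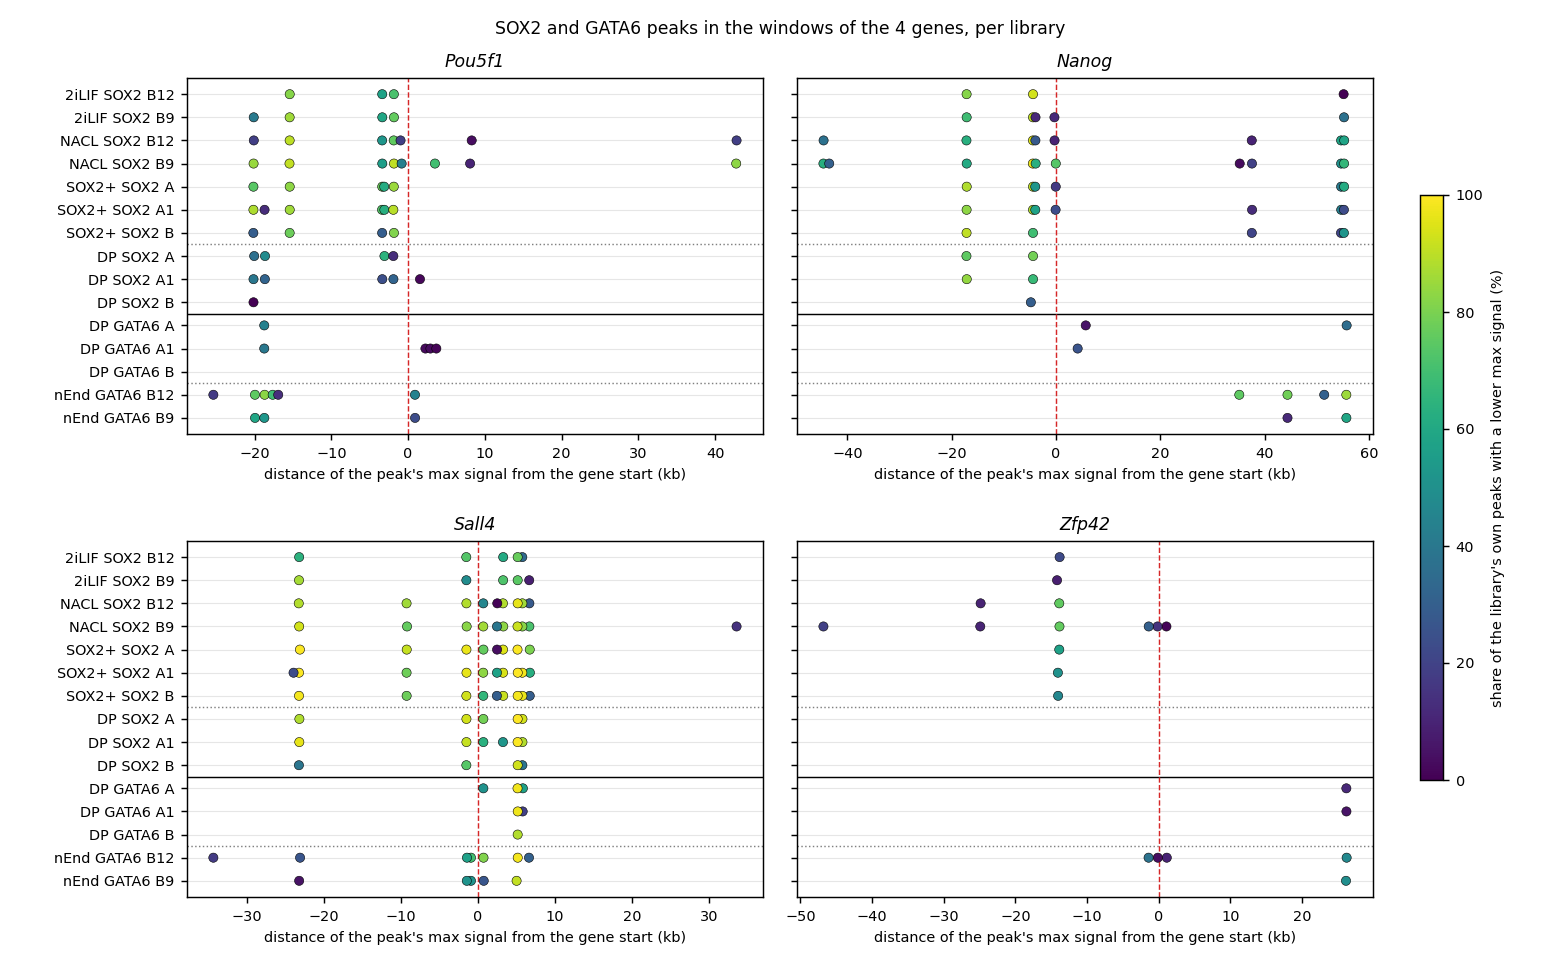
Each point is a SOX2 or GATA6 peak, placed by the distance of its maximum from the gene start (kb, dashed line at 0) in 1 row per library, with the 10 SOX2 libraries above the solid line and the 5 GATA6 libraries below it. Colour gives the share of the library's own peaks that are lower (%). SOX2 peaks at -15.4 kb of Pou5f1 and -13.9 kb of Zfp42 stop at the DP rows, while the column at +5.1 kb of Sall4 runs through all 15 rows.

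At Pou5f1, some SOX2 regions of pluripotent cells had no DP peak, some were shared, and 1 was found mainly in DP cells. The region at -15.4 kb (chr17:35490419-35490779), intergenic upstream of the gene, had a SOX2 peak in 7 of 7 pluripotent libraries, where 77.4 to 90.7% of the library's peaks were lower (median 85.7%). None of the 3 DP libraries and none of the 5 GATA6 libraries had a peak there. The regions at -3.4 kb (chr17:35502436-35503041) and -1.9 kb (chr17:35503711-35504300) were also called in 7 of 7 pluripotent libraries, with medians of 57.7% and 81.0%. DP libraries A and A1 had peaks at both, above 64.1% and 23.9% of their own peaks at -3.4 kb and above 13.2% and 31.7% at -1.9 kb, and DP library B had none. At -1.9 kb the ranks from the top were 3940 and 3427.5 in DP and 1927 to 3957.5 in pluripotent libraries. Shares and ranks both depend on the length of a list, and no order is read from them. No GATA6 library had a peak at either region.

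The region at -18.7 kb of Pou5f1 (chr17:35487038-35487473), intergenic and nearer to the start of H2-Q10, showed the opposite arrangement. DP libraries A and A1 had a SOX2 peak above 47.8% and 31.7% of their peaks, and the GATA6 libraries of the same letters had one above 43.6% and 40.0% of theirs. Of the 7 pluripotent libraries only SOX2+ A1 had a peak, above 12.2% of its own. Both nEnd GATA6 libraries had a peak, above 52.9% in B9 and 82.7% in B12. The SOX2 maxima lay between -18.70 and -18.64 kb and the GATA6 maxima between -18.74 and -18.69 kb. Within DP cells the SOX2 maxima lay at -18.66 and -18.64 kb and both GATA6 maxima at -18.74 kb. Among the 10 regions at the 4 loci with SOX2 in at least 2 DP libraries, this was the 1 with SOX2 in at most 1 pluripotent library, against 12.0% of 3554 regions in the genome. In the genome 78.4% of 426 regions of that kind also had GATA6 peaks in at least 2 DP libraries, as this 1 did. Library B of DP had no peak of either factor there, and none of the 4 DP peaks was in the upper 50% of its library, so the region has no DP peak when weaker peaks are left out.

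At -20.1 kb of Pou5f1 (chr17:35485644-35486513), also nearer to H2-Q10, SOX2 was called in 6 of 7 pluripotent libraries, above 18.7 to 87.7% of their peaks, and in 3 of 3 DP libraries, above 36.6%, 39.5% and 0.0726%. The last value belongs to DP library B, in which this was the sole SOX2 peak of the locus. Both nEnd GATA6 libraries had a peak in this region at -19.94 and -19.95 kb, while the SOX2 maxima lay at -20.05 to -20.16 kb. In an intron, at +0.9 kb, GATA6 was called in both nEnd libraries, above 23.4% and 44.4% of their peaks, and in no DP library. SOX2 library A1 of DP had a peak in the same region, above 1.84% of its peaks, with its maximum at 1.55 kb. Within the gene, GATA6 library A1 of DP had 3 weak peaks at +2.3, +2.9 and +3.6 kb, above 0.864 to 2.51% of its own peaks.

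H3K27ac lay over Pou5f1 in nEnd as in naive cells. Peaks covered 85.7% and 88.1% of the gene body in the 2 nEnd libraries and 79.3 to 100% in the 4 naive libraries, so the groups overlapped. The highest nEnd H3K27ac signal of the locus was at +1.0 kb in both libraries, beside the intronic GATA6 peaks, whereas the naive maxima lay between -3.3 and -2.2 kb upstream. The -15.4 kb region was under H3K27ac in 4 of 4 naive, 2 of 2 nEnd and the DP library, and in 0 of 2 SOX2+ libraries, which had 13514 and 14722 peaks in all. H3K4me1 lay over this region in every assigned library of each population. Over the gene body, H3K4me1 of the 2 nEnd libraries covered 88.9% and 0%, a wider spread between libraries of 1 clone than the 0 to 52.8% of the 4 naive libraries.

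At Nanog, SOX2 was called upstream of the gene in pluripotent and DP cells, in regions where no GATA6 peak was called. The region at -4.4 kb (chr6:122702267-122703292) had a SOX2 peak in 10 of 10 libraries. Pluripotent libraries ranked it above 69.5 to 97.1% of their peaks (median 90.6%), and the DP libraries above 78.9% in A, 67.4% in A1 and 29.5% in B. The ranks from the top were 945.5, 1652 and 907.5 in DP A, A1 and B and 546 to 3042 in the pluripotent libraries. A share falls and a rank is capped when a list is short, and the DP lists held 1378 to 5320 peaks against 8203 to 29623, so no order between DP and pluripotent peaks is read from either. The maximum of DP library B was at -4.83 kb, while the other 9 lay between -4.45 and -4.41 kb. The region at -17.1 kb (chr6:122690022-122690660) was bound in 7 of 7 pluripotent libraries, above 60.8 to 90.4% of their peaks, and in DP A and A1 above 75.0% and 83.9%. No GATA6 library had a peak at -17.1, -4.4, -4.0 or -0.1 kb.

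The promoter region of Nanog at -0.1 kb (chr6:122706957-122707664) carried SOX2 in 5 of 7 pluripotent libraries, above 9.47 to 73.8% of their peaks, and in 0 of 3 DP libraries. GATA6 peaks of the locus lay elsewhere. DP libraries A and A1 each had 1 peak over exons, A at +5.7 kb above 5.45% and A1 at +4.1 kb above 26.1% of its peaks, and neither position recurred. Both nEnd libraries had a GATA6 peak at +44.4 kb, above 11.6% and 78.3% of their peaks. At +55.2 kb (chr6:122762380-122763413), nearer to the start of Slc2a3, a glucose transporter gene, SOX2 was called in 7 of 7 pluripotent libraries above 0.28 to 66.4% of their peaks and in 0 of 3 DP libraries, and GATA6 in both nEnd libraries and DP library A. There the GATA6 maxima at 55.65 to 55.71 kb lay beyond the SOX2 maxima at 55.13 to 55.24 kb.

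The Nanog gene body carried no H3K27ac peak in nEnd. Coverage was 0% in both nEnd libraries and 100%, 93.8%, 100% and 5.28% in 2iLIF B9, 2iLIF B12, NACL B9 and NACL B12. NACL B12 stood apart, with no peak between 122696086 and 122714257 and hence none at -4.4 kb. The -4.4 kb region kept an H3K27ac peak in 2 of 2 nEnd libraries, above 26% and 39.5% of their peaks, while the naive peaks that covered it stood above 99.5%, 99.9% and 99.8%. The naive lists are much longer, which raises such shares, but by rank from the top the nEnd peaks stood at 15628 and 11923.5 and the naive ones at 319.5 to 1049.5. At -17.1 kb H3K27ac was called in 4 of 4 naive and 0 of 2 nEnd libraries, and H3K4me1 likewise in 4 of 4 and 0 of 2. H3K4me1 covered 0% of the gene body in both nEnd libraries and 0 to 33.6% in the naive ones.

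At Sall4, SOX2 and GATA6 shared 1 strong region in every library. The region at +5.1 kb (chr2:168761986-168763231), in an intron, had a peak in 10 of 10 SOX2 and 5 of 5 GATA6 libraries. It is 1 of the 4 regions at these loci with SOX2 in all 10 libraries, and 6.55% of the 1100 such regions in the genome had GATA6 in all 5. The SOX2 peak stood above 74.6 to 99.7% of peaks in the pluripotent libraries (median 96.3%) and above 99.7%, 99.4% and 92.9% in DP A, A1 and B. The GATA6 peak stood above 98.0%, 97.4% and 88.5% in DP A, A1 and B and above 90.9% and 98.1% in nEnd B9 and B12. The strongest maximum lay at 5.12 to 5.15 kb in every library but nEnd B9, where it lay at 5.0 kb. It was not the highest SOX2 peak of the locus in 2iLIF B9 and NACL B9, in which the region at -23.3 kb stood above 86.4% and 93.1% of peaks against 74.6% and 91.9% here. DP and pluripotent SOX2 values overlapped, and DP values overlapped those of the SOX2+ libraries, which stood at 99.6%, 99.7% and 98.4%.

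SOX2 was called in at least 2 DP libraries at 4 Sall4 regions, as at 4 of Pou5f1, 2 of Nanog and none of Zfp42. At -23.3 kb (chr2:168790700-168791492) and -1.5 kb (chr2:168769228-168769870) SOX2 was called in 10 of 10 libraries, with DP values of 88.1%, 96.3% and 38.8% and of 93.0%, 91.2% and 73.5% in A, A1 and B. GATA6 was called at both in the 2 nEnd libraries and in no DP library, above 4.94% and 26.2% of peaks at -23.3 kb and above 51.3% and 56.7% at -1.5 kb. At +3.2 kb SOX2 was called in 7 of 7 pluripotent libraries and in DP A1 alone. At +0.7 kb SOX2 was called in NACL and SOX2+ cells and in 2 of 3 DP libraries, and GATA6 in DP A and both nEnd libraries. The GENCODE basic transcripts of Sall4 start 0.742 kb inside the annotated gene, so this region lies over their start. At -9.3 kb SOX2 was called in NACL and SOX2+ cells in 5 of 5 libraries, above 76.0 to 91.1% of peaks, and in neither 2iLIF nor DP cells.

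H3K27ac peaks, wide in the nEnd lists, lay over the whole of Sall4 in nEnd. It covered 100% of the gene body in both nEnd libraries against 63.8%, 73.0%, 74.2% and 91.8% in the naive libraries, with 1 nEnd peak from 168748187 to 168770526 in B9 and from 168744883 to 168771485 in B12. SOX2+ cells had 35.1% and 36.5% and the DP library 37.8%, from lists that covered 26.2, 28.6 and 64.1 Mb against 137.2 and 175.2 Mb in nEnd. The nEnd maxima lay at +5.8 and +6.7 kb, near the region bound by both factors, and at -23.3 kb a further nEnd peak stood above 91.3% and 91.9% of peaks. H3K4me1 at +5.1 kb was called in both 2iLIF, both SOX2+, the DP and both nEnd libraries and in 0 of 2 NACL libraries.

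At Zfp42, DP cells had no SOX2 peak in the window and nEnd had little H3K27ac. The region at -13.9 kb (chr8:43320539-43321332) had a SOX2 peak in 7 of 7 pluripotent libraries, above 8.32 to 76.0% of their peaks (median 51.0%), and in none of the DP libraries. Among peaks in the upper 50% of their library it was no longer present in all 7. It was the weakest of the 4 genes' leading regions, with a median over the 10 SOX2 libraries, those without a peak counted as 0, of 34.2% against 82.4% at Pou5f1, 89.5% at Nanog and 97.3% at Sall4. Between -1.4 and +1.1 kb NACL B9 alone had SOX2 peaks, above 1.13 to 30.1% of its peaks, and nEnd B12 alone had GATA6 peaks in the same regions, above 3.37 to 37.9%. GATA6 was called downstream of the gene at +26.2 kb (chr8:43280609-43281129), in DP A and A1 above 11.1% and 5.44% of their peaks and in nEnd B9 and B12 above 49.2% and 47.2%, where no SOX2 library had a peak. H3K4me1 was called there in both nEnd libraries, 1 naive and 1 SOX2+ library, and H3K27ac in 1 naive and 0 of 2 nEnd libraries.

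H3K27ac in the Zfp42 window covered 51.9 to 64.3 kb in the naive libraries, 20.9 and 22.5 kb in SOX2+ cells, 21.8 kb in the DP library and 3.1 and 5.7 kb in nEnd. Over the genome the naive lists covered more bases than those of nEnd, and the SOX2+ and DP lists fewer. Each nEnd library had 1 peak, and it lay over the gene start. The gene body was covered over 94.6 to 96.4% in naive libraries and over 16.5% and 44.8% in nEnd, so the groups lay apart. At -13.9 kb H3K27ac and H3K4me1 were each called in 4 of 4 naive, 2 of 2 SOX2+ and 1 of 1 DP libraries and in 0 of 2 nEnd libraries.

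**Figure D2:**
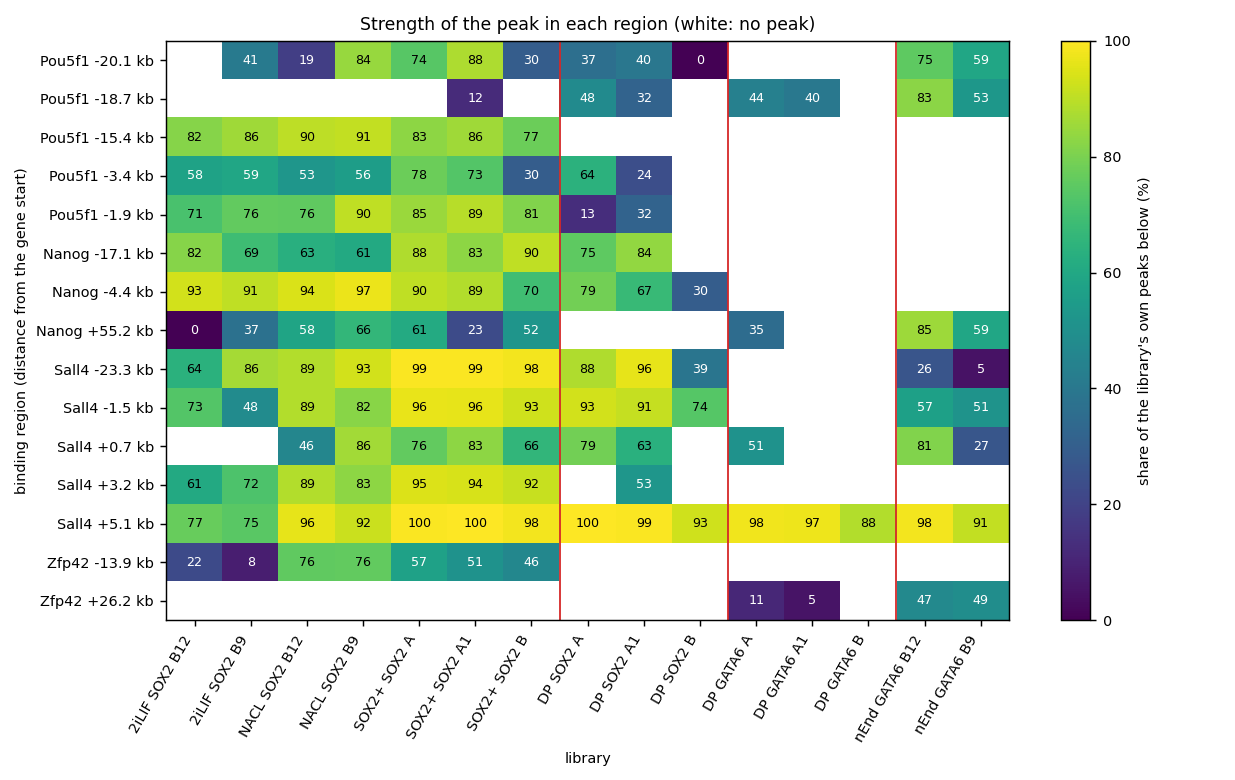
Rows are the binding regions with SOX2 in 7 of 7 pluripotent libraries or with either factor in at least 2 DP libraries, columns are the SOX2 and GATA6 libraries in groups parted by red lines, and each number is the share of the library's own peaks below the strongest peak of the region (%), with white for no peak. DP library B fills the fewest rows of the SOX2 columns, and Sall4 +5.1 kb is the row with no white cell.

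**Figure D3:**
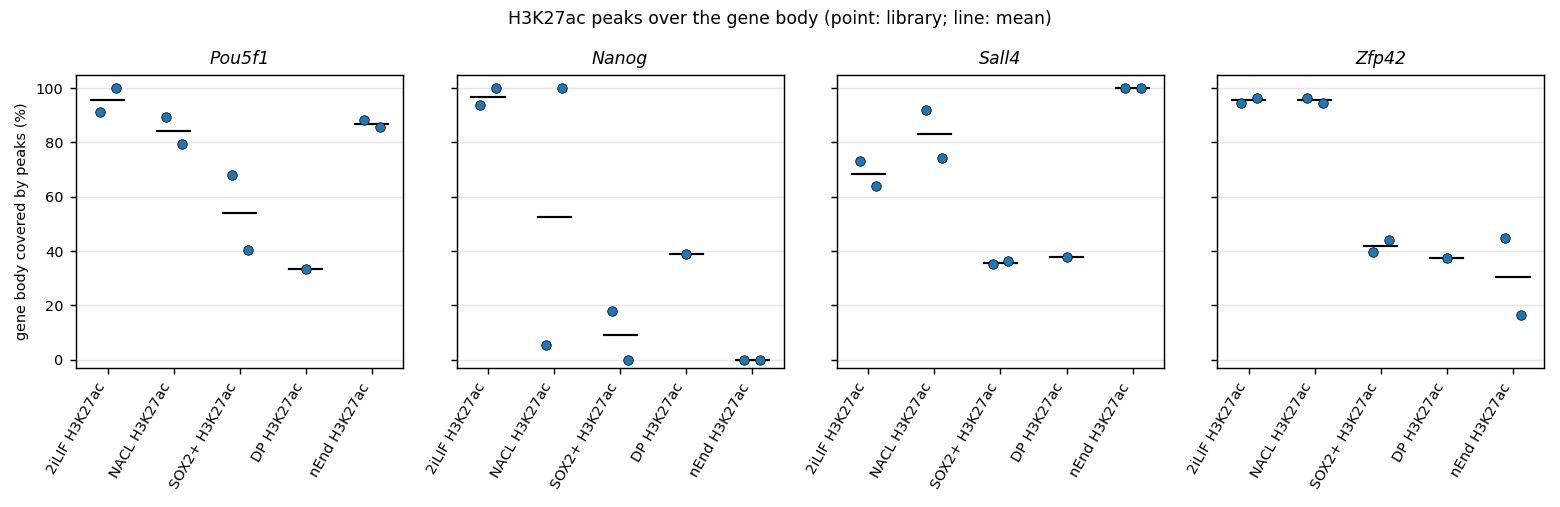
Points give the share of each gene body covered by H3K27ac peaks (%) in each library, and lines give the mean of 2 libraries (1 for DP). The nEnd libraries are at 0% for Nanog and at 100% for Sall4, and for Pou5f1 they lie among the naive libraries.

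Set against all genes, gene-body H3K27ac coverage was lower in both nEnd libraries than in all 4 naive libraries for 2 of the 4 members, Nanog and Zfp42, as it was for 35.9% of protein-coding genes, and higher for 1, Sall4, as for 9.77%. For H3K4me1 no member's groups lay apart in coverage, where 6.25% of genes were lower and 9.23% higher in nEnd. With 2 libraries against 4 the exact two-sided permutation p cannot fall below 0.133, which was its value for these 3 members. This measure was added after the data had been seen.

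**Figure D4:**
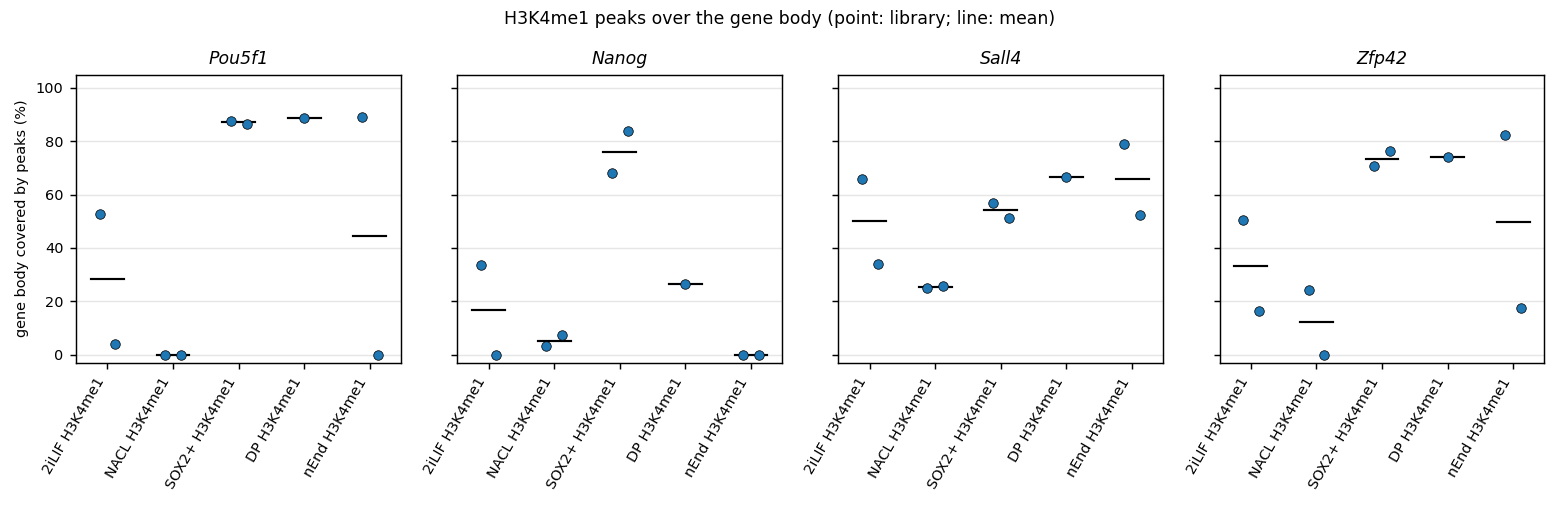
Points give the share of each gene body covered by H3K4me1 peaks (%) in each library, and lines give the mean of 2 libraries (1 for DP). The nEnd libraries of Pou5f1, at 0% and 88.9%, spread as widely as the whole set, and those of Nanog are both at 0%.

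To compare each locus with all others, every protein-coding gene's window was scored in each library by its highest peak maximum and given its percentile among all 21938 windows. Windows without a peak share a middle rank, so a low-depth library places even a weak peak high, and 91.3% of windows had no SOX2 peak in DP library B. Such windows made up 72.8 to 91.3% in the DP SOX2 libraries and 28.2 to 64.5% in the pluripotent ones. For GATA6 they made up 60.3 to 91.3% in DP and 34.1% and 29.8% in nEnd. A gene without a peak in any library therefore counts as higher in DP without overlap. The shares of all genes higher in DP include such genes. The percentiles of SOX2 at Pou5f1 were 87.8 ± 4.61 in DP (SD, n = 3) and 88.1 ± 2.51 in pluripotent libraries (SD, n = 7), and at Nanog 94.0 ± 0.502 and 92.6 ± 3.56. At Sall4 they were 99.7 ± 0.275 in DP and 94.6 ± 5.19 in pluripotent libraries. The pluripotent libraries were unlike at Sall4, with 99.6, 99.7 and 98.9 in SOX2+ A, A1 and B, 89.6 and 89.2 in 2iLIF and 88.6 and 96.3 in NACL, and DP exceeded SOX2+ alone by 0.29 points (exact two-sided permutation p = 0.4). For these 3 genes the groups overlapped, with exact two-sided permutation p = 0.867, 0.617 and 0.0667 and adjusted p = 0.914, 0.735 and 0.15 over all genes. The difference at Pou5f1 was -0.291 points, and with equal peak numbers, the strongest 1378 of each library, it turned to 14.9 points (exact two-sided permutation p = 0.567, groups overlapping). The strongest Pou5f1 peak ranked 1439.5 to 2715.5 in pluripotent libraries, 1599 in DP A and 3036.5 in DP A1, so the cut removes it there. Only DP library B kept a peak, of rank 1376.5 of 1378, so this setting cannot compare the groups. That peak, above 0.0726% of its library's peaks, also gave the highest DP percentile of Pou5f1, 91.3, where 91.3% of windows held no peak.

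Zfp42 was the member whose DP libraries lay apart on this scale. Its SOX2 percentile was 36.9, 36.4 and 45.6 in DP A, A1 and B, the rank of windows without a peak, and ran from 54.9 to 79.8 with a median of 67.7 in the pluripotent libraries. The difference in means was -27.8 percentile points (exact two-sided permutation p = 0.0167, the smallest that 3 against 7 libraries can give, adjusted p = 0.0496, Benjamini-Hochberg over 21938 genes). The percentile was lower in 3 of 3 DP libraries. The adjusted p was under 0.05 for 7367 genes, 1856 lower and 5511 higher in DP. Genes without a SOX2 peak in any library are among the 5511, and the adjusted p of Zfp42 depends on their number. Without overlap, 8.46% of all genes were lower in DP and 25.1% higher, beside 1 and 0 of the 4 members. The 25.1% includes genes without a SOX2 peak in any library. A single call among 4 says little about the members as a group. The -13.9 kb peaks of the 7 pluripotent libraries ranked from 3957.5 to 11858.5 in their lists, so the strongest 1378 peaks leave no SOX2 peak of Zfp42 in any library, and equal peak numbers cannot test this call. It did not hold with a 100 kb flank or among genes with a peak in at least 1 library, and the adjusted p ran from 0.0629 to 0.152 with any 1 library left out. Against the 3 SOX2+ libraries alone the same member lay lower, by 26.7 points (exact two-sided permutation p = 0.1, the smallest possible with 3 against 3), where 18.6% of genes were lower and 35.3% higher without overlap. This separation too was lost with a 100 kb flank and among genes with a peak in at least 1 library.

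GATA6 percentiles of Pou5f1, Nanog and Zfp42 overlapped between DP and nEnd. Those of Sall4 did not, at 98.8, 99.3 and 98.9 in DP and 85.6 and 95.4 in nEnd (exact two-sided permutation p = 0.2, the smallest that 3 against 2 libraries can give). Over all genes 33.2% were higher and 25.7% lower in DP without overlap, and the 33.2% includes genes without a GATA6 peak in any library. DP library B had no GATA6 peak at the other 3 genes, which puts them at 45.7. Within DP, Pou5f1 stood at 74.6 and 85.7 in A and A1, Nanog at 71.8 and 83.1 and Zfp42 at 64.2 and 79.1.

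**Figure D5:**
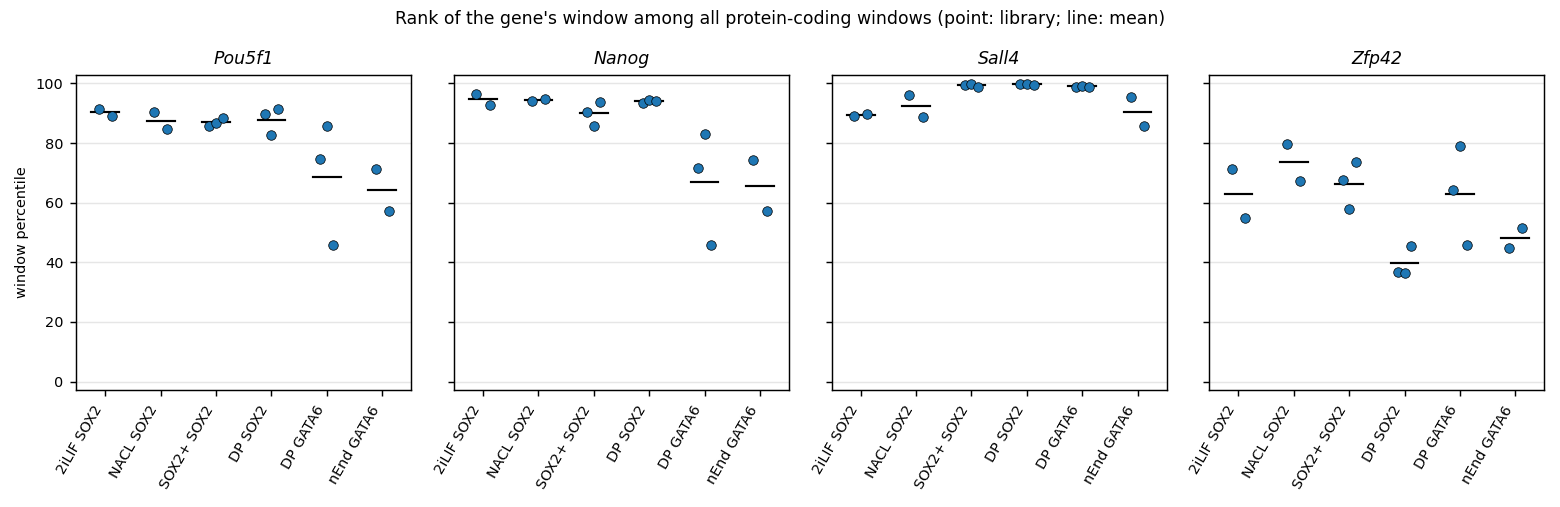
Points give the percentile of each gene's window among 21938 windows in each SOX2 and GATA6 library, and lines give the group mean. Sall4 lies at 85.6 or above in all 15 libraries, and the 3 DP SOX2 points of Zfp42 lie below every other SOX2 point of that gene.

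H3K27ac percentiles of nEnd lay above the naive ones for Sall4 and below them for Nanog and Zfp42, with no adjusted p under the threshold. Sall4 was at 92.1 ± 2.89 in nEnd (SD, n = 2) and 59.8 ± 10.6 in naive libraries (SD, n = 4), a difference of 32.3 points. Nanog was at 75.5 ± 10.2 and 94.0 ± 2.21 and Zfp42 at 55.5 ± 20.4 and 80.1 ± 8.28, differences of -18.5 and -24.7 points. The groups of these 3 did not overlap (exact two-sided permutation p = 0.133, the smallest possible, adjusted p = 0.255), and those of Pou5f1, at 76.6 ± 10.7 and 78.5 ± 11.4, did. Of all genes 26.5% were lower and 25.9% higher without overlap. The nEnd values of Nanog came from peaks with maxima at +57.8 and +65.8 kb and the 2iLIF B9 value of Sall4 from one at +73.3 kb, all beyond the windows. The 2iLIF B9 and NACL B12 values of Nanog came from maxima at +55.0 and +55.2 kb, inside the window but nearer to the start of Slc2a3. The Nanog difference thus rests in part on peaks beside Slc2a3. Counting only maxima inside the window, the Sall4 difference was 35.4 points, and with a 20 kb flank only 1 member's groups lay apart.

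H3K4me1 percentiles of all 4 members overlapped between nEnd and naive libraries, against 16.7% of genes lower and 19.5% higher without overlap. Differences were -8.25 points for Pou5f1, 4.08 for Nanog, 13.2 for Sall4 and -16.9 for Zfp42 (exact two-sided permutation p from 0.267 to 0.4). The nEnd values of Nanog again came from peaks with maxima beyond its window, at +63.0 and +73.4 kb, as did the 2iLIF values of Sall4, at +72.2 and +79.6 kb, and with a 20 kb flank Nanog was lower in nEnd by 40.1 points with no overlap (exact two-sided permutation p = 0.133).

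The 24 other pluripotency genes listed beside the members are given as counts without overlap, against the shares of all genes printed above for each comparison. For SOX2 in DP against pluripotent cells 6 were lower and 1, Esrrb, higher, from -51.2 points at Prdm14 to 9.27 at Esrrb, with a median of -14.5 points against 3.18 for all genes. These ranks compare short DP lists with longer ones, and the shares of all genes higher in DP include genes without a peak in any library. With the strongest 1378 peaks of each library 3 were lower and 0 higher, where 2.80% of all genes were lower and 1.40% higher. At that depth the adjusted p was under 0.05 for 0 of 21938 genes by the exact permutation test, with 1044 under 0.05 unadjusted, and most windows then hold no peak. Against SOX2+ libraries 11 were lower and 1 higher (median -13.6 points against 4.04), and with equal peak numbers 4 and 0, where 3.82% and 1.87% of all genes were. For GATA6 in DP against nEnd 5 were lower and 9 higher (median 5.73 points against 1.62), close to the shares of 25.7% and 33.2%, and with equal peak numbers 1 and 6, where 4.29% and 6.70% were.

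For H3K27ac in nEnd 16 of the 24 genes were lower and 1 higher, where 26.5% and 25.9% of all genes were, with a median of -25.5 points against -0.00541, from -72.4 at Esrrb to 21.9 at Utf1. With equal peak numbers 14 were lower and 1 higher, where 22.9% and 19% of all genes were. For H3K4me1 7 were lower and 1 higher, where 16.7% and 19.5% were (median -0.327 against 2.08), with Fgf4, a growth factor of the epiblast, at -82.0 points. With 2 libraries against 4, the exact test can pass no gene.

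Markers of other cell types were listed for the same comparisons, with the same shares of all genes. Of 19 PrE markers, 0 were lower and 7 higher for SOX2 in DP against pluripotent cells (median 14.4 points), where 8.46% and 25.1% of all genes were, and with equal peak numbers 0 and 1. Against SOX2+ cells 2 were lower and 7 higher (median 1.24 against 4.04), near the shares of 18.6% and 35.3%. With equal peak numbers 0 were lower and 1 higher, where 3.82% and 1.87% of all genes were. GATA6 at PrE markers was lower in DP than in nEnd for 11 and higher for 4 (median -5.46), and with equal peak numbers for 10 and 3. In nEnd 0 PrE markers were lower and 14 higher for H3K27ac (median 43.1), and 0 and 12 for H3K4me1 (28.6), against 25.9% and 19.5% of all genes higher. Of 7 naive markers 6 were lower and 0 higher for H3K27ac and 2 and 1 for H3K4me1, and the counts were 2 and 1 for SOX2 against pluripotent cells, 2 and 1 against SOX2+ cells and 3 and 3 for GATA6. Of 6 trophoblast markers 0 were lower and 0 higher for SOX2 against pluripotent cells, 1 and 0 against SOX2+ cells, 1 and 2 for GATA6, 1 and 3 for H3K27ac and 1 and 2 for H3K4me1. Of 4 neural markers the counts in that order were 0 and 0, 1 and 0, 0 and 4, 3 and 0, and 2 and 0. The 4 for GATA6 are windows without a peak in DP and nEnd alike, each at a mean of 38.3 and 16, and are not read as binding. With equal peak numbers the neural counts in the same order were 0 and 0, 0 and 0, 0 and 0, 1 and 0, and 2 and 0, the trophoblast counts 0 and 0, 1 and 0, 0 and 0, 1 and 3, and 1 and 2, and the naive counts for the SOX2 comparisons and GATA6 1 and 0, 1 and 0, and 0 and 2. With lists of 4 to 7 genes such counts are a description, and naive markers are held in the list of other pluripotency genes too, Prdm14 and Esrrb among them.

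The genes whose window percentile followed the members most closely over the 33 assigned libraries were named by Pearson correlation. These were Nanog (0.79) and Sinhcaf (0.78) for Pou5f1, Deptor (0.91) and Dennd5b (0.91) for Nanog, Abca4 (0.84) for Sall4, and Mog (0.81) and Arhgap32 (0.80) for Zfp42. Among the members, Pou5f1 and Nanog correlated at 0.79, Nanog and Zfp42 at 0.50 and Pou5f1 and Zfp42 at 0.40, and Sall4 at 0.02 with Pou5f1, -0.20 with Nanog and -0.35 with Zfp42. The points share antibodies, cultures and depth, so these values are a description.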

How the data were processed

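Peaks were called by the authors for each library with SEACR, with IgG as control, after adapter trimming and alignment. The submitters' processing notes name cutadapt 1.18, Bowtie2 2.3.4.1, SAMtools 1.9, Picard 2.9.1, bedtools 2.27.1, deepTools 3.2.0 and the builds GRCm38 and mm10. The deposited lists give, for each peak, coverage signal summed over the peak and its maximum, on each library's own scale. The lists are named relaxed for histone marks and stringent for the factors, while the methods state the reverse, which could change how many weak peaks were kept.

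Lists of 35 libraries were read, and 33 were assigned to a group by their labels. The H3K27ac and H3K4me1 libraries of KOSR with the letter B that name DP in the title and SOX2+ in the source name were kept apart, and 18 IgG samples have no list among the files used here. Peaks overlapping by 1 bp were merged into regions. Windows of the gene body and 50 kb each side were scored by the highest maximum, ranked within a library, and compared by exact two-sided permutation of libraries with Benjamini-Hochberg adjustment over 21938 genes (Python 3.11.15, numpy 2.4.6, pandas 2.3.3). Groups called apart are those whose libraries do not overlap. The tests were checked on simulated data.

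The named genes are the 4 members, the 2 genes most correlated with each whose windows do not overlap its own, and the extremes of a list. 1 gene that this rule names is not reported here. The lists were 24 other pluripotency genes and markers of PrE, naive, trophoblast and neural cells. The members, lists and region classes were chosen with earlier results of these data known. Clones B9 and B12 pair the H3K27ac libraries as cell lines. The deviations of same-clone libraries from their group means correlated at 0.17, 0.10 and 0.04 over genes. Nothing says that libraries of a group came from separate cultures beyond clone and title letter, so p-values measure the spread between these libraries.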

Additional observations from a re-analysis of the deposited data

Results flagged for a closer look

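In the naive H3K4me1 libraries the Nanog window of NACL B12 stood at percentile 99.3, apart from the other 3 at 91.3 to 91.5. Its gap to the nearest was 0.973 of the range, above Dixon's 95% critical value for 4 samples. Of 12 groups tested this was the 1 past its limit, where chance passes about 1 in 20.

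The H3K27ac and H3K4me1 libraries whose labels name both DP and SOX2+ entered no comparison, and their windows held signal at all 4 genes. In the H3K4me1 library the percentile was 87.1 for Pou5f1, 83.5 for Nanog, 87.1 for Sall4 and 99.6 for Zfp42. In the H3K27ac library it was 97.6 for Pou5f1, 99.5 for Nanog, 89.8 for Sall4 and 89.8 for Zfp42.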

How the results depend on the processing

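Counts are members, of 4, whose groups do not overlap. No share of all genes is given for the flank, summed-signal, left-out and block settings. Groups with fewer libraries lie apart more easily, so the counts at these settings are a description. For SOX2 in DP against pluripotent libraries the count of 1 became 0 with a 100 kb flank, with equal peak numbers (the strongest 1378 of each library, which leave no Zfp42 peak) and among genes with a peak in at least 1 library, and ran from 1 to 2 with 1 library left out (2 without DP SOX2 replicate 3). Against SOX2+ libraries 1 became 0 under the same 3 settings and ran from 1 to 2 with 1 left out (2 without any 1 DP library or SOX2+ replicate 3). With the title letter as a replicate block it was 3, with Nanog and Sall4 higher and Zfp42 lower in DP within each letter. No label says what the letters share, and same-letter deviations correlated at 0.05, 0.05 and 0.08. For GATA6 1 became 2 with a 20 kb flank, 3 with 100 kb and 2 among genes with a peak, and ran from 1 to 3 (3 without DP replicate 3, 2 without nEnd replicate 1). For H3K27ac 3 became 1 with a 20 kb flank, and stayed 3 with the clone as a replicate block and with each library left out. For H3K4me1 0 became 2 with a 20 kb flank, 2 with summed signal and 1 with maxima inside the window, and ran from 0 to 3 (3 without NACL replicate 2, 2 without nEnd library 1, 1 without nEnd library 2 or NACL replicate 1). The 48 regions became 27 when only peaks in the upper 50% by maximum were kept. Pou5f1 regions with SOX2 in at least 2 DP libraries then went from 4 to 0 and those with both factors from 1 to 0, Pou5f1 regions with SOX2 in all pluripotent libraries from 3 to 2, Nanog's from 3 to 2, Sall4's from 4 to 3 and Zfp42's from 1 to 0. When peaks were merged only at an overlap of 50% of the smaller interval, Pou5f1 went from 15 to 16 regions and Nanog from 14 to 15. Regions with both factors then went from 4 to 3 at Pou5f1 and from 2 to 1 at Nanog, and Sall4 and Zfp42 kept their counts. The cause of these changes was not tested.

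Directions turned for differences whose groups overlapped. For SOX2 against pluripotent libraries, Nanog was -1.23 with 100 kb and -1.04 with summed signal. Pou5f1 was 0.846 with summed signal and -2.02 to 2.32 with 1 library left out. With equal peak numbers Pou5f1 was 14.9, where only DP library B kept a Pou5f1 peak. Against SOX2+, Nanog was -0.859 with 100 kb and -0.413 with summed signal, Sall4 -0.0167 with summed signal, and Pou5f1 -0.93 to 3.41 with 1 left out. For GATA6, Pou5f1 was -2.08 with 20 kb and -4.07 to 15.9 with 1 left out, and Nanog -7.47 to 11.7. For H3K27ac, Pou5f1 was -9.46 to 5.62. For H3K4me1, Nanog was -40.1 with 20 kb and -15.5 with maxima inside the window, both without overlap, and Pou5f1 was 2.79 with 100 kb. Gene-body coverage, chosen after seeing the data, gave 30.2 for Pou5f1, -11 for Nanog and 27.1 for Zfp42. With few peaks in DP libraries, most windows there hold none and share a rank.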
